A study of Mus musculus with 2 samples.

Results

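The nuclear respiratory chain genes are the nuclear genes that encode the subunits of the mitochondrial respiratory chain complexes and of the ATP synthase. Members were taken by symbol from the protein-coding gene models of the mouse, as those that start with Nduf and then a, b, c, s or v, the genes Sdha to Sdhd, and those that start with Uqcr, with Cox4 to Cox8 or with Atp5. This gave 93 of 21829 protein-coding genes. Of these, 7 are core subunits of complex I, 29 are its accessory subunits and 8 its assembly factors. A further 4 belong to complex II, 8 to complex III, 12 to complex IV (with Cox7a2l, which helps to join complexes into larger assemblies) and 17 to the ATP synthase group, which includes Atp5s. The remaining 8 are isoforms known mainly from particular tissues.

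Open chromatin was mapped by ATAC-seq, in which the Tn5 transposase inserts adapters where DNA is free of nucleosomes. The cells were primary blood monocytes of adult C57BL/6J mice aged 5 to 6 weeks, with no treatment or genetic change named in the labels. There was 1 group of 2 biological replicates, each from 50000 cells, and no control group or other cell type, so no condition was compared and no test was made. Both replicates carry the same donor identifier, sex was not collected, and nothing in the labels says that they are separate animals. Their spread may therefore be technical only.

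Complex I passes electrons from NADH, and complex II from succinate, to ubiquinone. Complex III hands them to cytochrome c, and complex IV to oxygen, and the proton gradient built on the way drives the ATP synthase. Nuclear genes supply most of the subunits, and the transcription factors NRF1, GABP (an ETS factor), YY1 and the estrogen-related receptors (ERR) are known for binding at such genes.

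A promoter was called open where a region of merged peaks lay within 1 kb of a start of the gene. The value of a region is the fold enrichment of its strongest peak over background, the authors' own number for each peak, which ranks peaks within a list. A pooled value comes from the authors' conservative set, made from both replicates, and replicate values come from the looser set of each replicate. Exact strings were searched on both strands around the start of the main transcript of each gene, with position 0 at its first base.

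A short ERR string, CAAGGTCA (read TGACCTTG on the opposite strand), lay in the first intron of 18 of the 93 members, at 171 to 464 bp from the start. In the first 500 bp of the transcript, 19.4% of members thus had it in an intron, against 1.43% of all genes. This split by intron was chosen after a wider count had been seen. In 10 of the 18 the string was inside the open promoter region, a count given without a share over all genes. The stretches of 9 of them follow, to show the element and its surroundings from gene to gene. Each reads 5′ to 3′ on the strand of the gene, from GRCm38 (mm10), with the ERR string in capitals.
Atp5mpl, chr12:111966783-111966822, minus strand: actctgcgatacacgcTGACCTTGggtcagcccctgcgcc
Atp5g2, chr15:102670913-102670952, minus strand: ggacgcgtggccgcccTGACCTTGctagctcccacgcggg
Uqcr10, chr11:4704114-4704153, minus strand: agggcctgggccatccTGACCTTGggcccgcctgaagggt
Atp5b, chr10:128083480-128083519, plus strand: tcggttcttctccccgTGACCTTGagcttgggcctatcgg
Ndufb5, chr3:32737242-32737281, plus strand: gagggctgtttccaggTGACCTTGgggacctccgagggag
Atp5c1, chr2:10080160-10080199, minus strand: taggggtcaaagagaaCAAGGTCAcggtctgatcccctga
Ndufaf5, chr2:140170987-140171026, plus strand: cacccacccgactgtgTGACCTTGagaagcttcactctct
Atp5e, chr2:174463706-174463745, minus strand: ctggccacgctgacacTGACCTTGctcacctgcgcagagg
Ndufa12, chr10:94199393-94199432, plus strand: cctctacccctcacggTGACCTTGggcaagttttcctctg
All but Atp5c1 carry the string in the same direction.

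Other members carry the ERR, NRF1, ETS, YY1 or CRE string close to the start itself. The next stretches show each of these, again on the gene's strand with the strings in capitals. The ETS and NRF1 strings are both in Uqcr11, and the ETS and ERR strings both in Sdhd.
Atp5k, chr5:108434440-108434508, minus strand, NRF1 at the start: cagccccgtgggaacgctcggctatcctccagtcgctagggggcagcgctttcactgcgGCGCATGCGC
Uqcr11, chr10:80406818-80406890, minus strand, ETS then NRF1: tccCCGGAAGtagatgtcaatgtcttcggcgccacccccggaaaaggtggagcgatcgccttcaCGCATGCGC
Sdhd, chr9:50603806-50603909, minus strand, ETS then ERR: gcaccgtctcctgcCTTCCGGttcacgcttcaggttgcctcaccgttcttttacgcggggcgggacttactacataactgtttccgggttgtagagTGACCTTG
Atp5g3, chr2:73911327-73911426, minus strand, ERR: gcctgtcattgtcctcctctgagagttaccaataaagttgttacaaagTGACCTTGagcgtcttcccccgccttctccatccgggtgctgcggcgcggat
Ndufb2, chr6:39592474-39592573, plus strand, CRE: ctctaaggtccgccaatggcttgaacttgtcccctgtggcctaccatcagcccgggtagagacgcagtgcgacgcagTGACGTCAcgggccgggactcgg
Ndufs7, chr10:80249462-80249491, plus strand, YY1: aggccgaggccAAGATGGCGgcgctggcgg
The last 3 stretches are the 150 bases before the start of an open gene of complex IV, of its tissue-restricted isoform with no open promoter, and of Cox7a1, the open gene among those isoforms. Capitals mark NRF1.
Cox6a1, chr5:115348982-115349131, minus strand: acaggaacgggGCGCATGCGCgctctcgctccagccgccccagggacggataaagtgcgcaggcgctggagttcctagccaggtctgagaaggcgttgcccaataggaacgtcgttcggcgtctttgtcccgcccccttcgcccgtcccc
Cox6a2, chr7:128206388-128206537, minus strand: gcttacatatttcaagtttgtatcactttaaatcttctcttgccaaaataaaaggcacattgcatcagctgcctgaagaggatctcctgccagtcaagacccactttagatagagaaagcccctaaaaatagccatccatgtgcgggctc
Cox7a1, chr7:30183994-30184143, plus strand: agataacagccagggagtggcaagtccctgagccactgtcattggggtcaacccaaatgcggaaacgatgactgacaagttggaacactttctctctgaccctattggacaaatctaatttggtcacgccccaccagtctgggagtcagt
The Cox6a1 stretch holds 17 CpG dinucleotides, the Cox6a2 stretch 1 and the Cox7a1 stretch 3.

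Nearly all of the respiratory chain was open. In the conservative set 84 of 93 members had an open promoter (90.3%), against 46.6% of all protein-coding genes and 78.5% of the 4366 genes whose promoters are richest in CpG. Replicate 1 gave 87 members, where the share of all genes was 50.5%, and replicate 2 gave 86, where it was 51.3%. Of the members, 19 belong to those 4366 genes, and the members' median CpG ratio within 500 bp of the start was 0.72, against 0.57 for all genes. Among other gene families of basic cell function, 75 of 78 mitochondrial ribosomal protein genes, 85 of 98 cytosolic ribosomal protein genes and 38 of 40 proteasome subunit genes were open.

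The label of the cells was checked against markers. Of 10 monocyte genes, 9 had an open promoter, among them Csf1r, Cx3cr1, Ly6c2, Lyz2 and Spi1, while Ccr2 had distal regions only. In the conservative set, open promoters were found for 2 of 5 B cell, 1 of 5 T cell, 1 of 4 NK cell and 1 of 4 erythroid markers and for 0 of 4 neutrophil, 0 of 4 platelet, 0 of 4 muscle and heart and 0 of 3 testis markers. The T cell gene was Cd3d, and the strongest summit of its region lay 811 bp from its start. Other cells in the preparation would have their own open respiratory chain promoters, and their part in the values below was not tested. The lists of replicates 1 and 2 gave 9 and 8 monocyte markers and 1 and 0 erythroid markers. Each list gave 2 B cell, 1 T cell, 2 NK cell, 1 neutrophil and 1 platelet marker. The erythroid gene was Klf1 in the conservative set, with its summit 1275 bp from the start, and Hbb-bt in replicate 1. By distal regions in the conservative set, 7 of 10 monocyte, 3 of 4 NK cell, 3 of 4 neutrophil and 2 of 5 B cell markers had one. So did 2 of 5 T cell, 2 of 4 platelet, 1 of 4 muscle and heart, 1 of 3 testis and 0 of 4 erythroid markers, against 33.6% of all genes. Monocyte markers had 2.3 such regions per gene and NK cell markers 2.25, with 7 at Klrb1c. The conservative set held 39944 peaks in 28438 merged regions.

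Open members were also strong among open promoters. Their median pooled fold was 10.1, against 8.34 for all 10162 open promoters, and the median member stood at percentile 70.6 of these. Of the 84, 67 lay above the median of all open promoters, 36 above percentile 75 and 10 above percentile 90, while 5 lay under percentile 25. The replicates gave medians of 9.32 and 9.35 for members, against 7.51 and 7.40 for all genes found open in them. The pooled medians were 9.11 for mitochondrial ribosomal proteins, 9.27 for cytosolic ribosomal proteins, 9.73 for the proteasome and 10.6 for the 33 open genes of 34 non-member assembly factors and cytochromes c. The members' median lies above those of both ribosomal protein families and the proteasome. It lies under that of the assembly factors and cytochromes c, a list of genes from the same pathway.

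**Figure D1:**
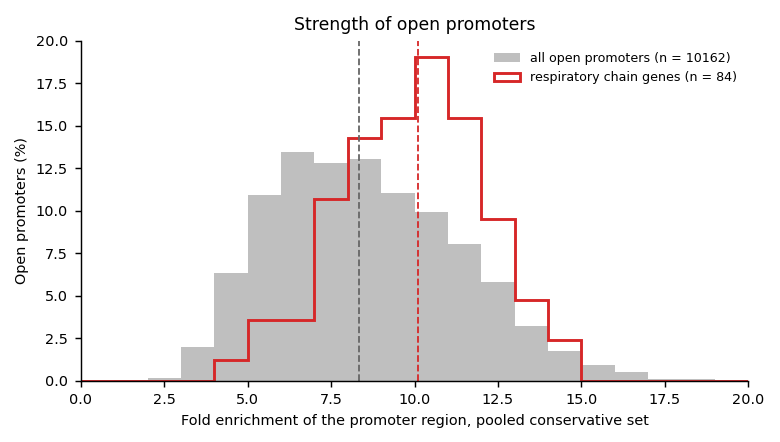
Share of open promoters (%) by pooled fold enrichment in bins of 1, for all 10162 open promoters (grey) and the 84 open respiratory chain genes (red line), with dashed lines at the medians. The members' median of 10.1 lies to the right of the median of 8.34 for all open promoters, and both distributions overlap over most of their range.

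The 2 replicates gave close values at these promoters. On the log2 scale the fold of replicate 2 differed from that of replicate 1 by a median of -0.04 over 84 members (SD 0.22), and 50 members were higher in replicate 1 and 34 in replicate 2. Over all 10614 genes open in both, the median was -0.01 and the SD 0.23. Among open members, 3 differed by over 0.5 on this scale.

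All 7 core subunits of complex I, which hold its flavin and its iron-sulfur clusters, were open. Ndufs3 had a fold of 10.4 in replicate 1 and 11.5 in replicate 2. Ndufv1, the flavin-binding subunit that takes up electrons from NADH, had 8.55 and 9.53. Ndufs3 stood above Ndufv1 and the 4 core subunits that follow in both replicates, while Ndufs8 and Ndufv2 exceeded Ndufv1 in replicate 1. Ndufs8 had 8.84 and 7.15, and Ndufs1, the largest subunit of the complex, had 7.44 and 7.28. Ndufv2 had 10.03 in replicate 1 and 6.72 in replicate 2, a gap of -0.58 on the log2 scale. Ndufs7 was the weakest, at 5.78 and 5.49, and lay under the 5 named before it within each replicate.

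All 29 accessory subunits of complex I were open, with medians of 10.02 and 9.39. Ndufb3 had 13.8 and 11.9, Ndufs5 12.6 and 13.1, and Ndufv3 11.8 and 12.8, and these 3 were among the 8 strongest members by mean rank. At the other end, Ndufs6 had 6.47 and 6.55, Ndufa13 had 6.45 and 5.98, and Ndufb10 had 5.40 and 6.10, among the 8 weakest. Of the 8 assembly factors, which help to build complex I and are not kept in it, 7 were open. Ndufaf5 was among the 8 strongest members by mean rank, at 12.2 and 13.3, and Ndufaf3 among the 8 weakest, at 5.16 and 5.32.

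Complex II, which is also succinate dehydrogenase of the citric acid cycle, had all 4 promoters open. Sdha, the flavoprotein, had 7.92 and 8.12, and Sdhb, the iron-sulfur subunit, had 7.82 and 8.35. The membrane anchors were higher: Sdhc had 11.8 and 9.45, and Sdhd had 9.09 and 9.55. Within each replicate both anchors lay above Sdha and Sdhb. The regions of Sdha, Sdhc and Sdhd are shared with a neighbouring gene, so their values cannot be given to the complex II gene alone. All 8 genes of complex III were open, from 7.73 to 11.7 in replicate 1 and from 6.31 to 10.8 in replicate 2.

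In complex IV, Cox7c stood first among all members by mean rank, with 12.8 in replicate 1 and 13.7 in replicate 2. Cox7a2 had 10.3 and 13.9, and Cox6b1 had 11.9 and 11.2. Cox4i1, the largest nuclear subunit of the complex, was weak, at 5.29 and 4.67. Cox7b was not in the conservative set at all, although a peak of 5.49 in replicate 1 and 3.79 in replicate 2 lay at its start. Its promoter has a CpG ratio of 0.48. Of the 17 ATP synthase genes all were open, with medians of 9.51 and 9.70. Atp5s, a coupling factor, was highest at 12.8 and 11.4. Atp5d, the delta subunit of the central stalk, was the weakest of all open members in both replicates, at 5.06 and 4.27, and Atp5a1, the alpha subunit, had 6.74 and 6.12.

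The 5 members with the widest gap between replicates were Ndufaf4, Ndufv2, Atp5mpl, Cox7b and Atp5o. Ndufaf4 had 4.70 in replicate 1 and 9.30 in replicate 2, a log2 difference of 0.98. Atp5mpl had 9.29 and 6.40, and Atp5o had 7.33 and 10.5. Ndufaf4 was also absent from the conservative set. Its IDR score, the authors' measure of agreement between ranked replicates, was 376 and that of Cox7b 495, where the conservative set starts at 540. Both were in the authors' other IDR-thresholded set, with folds of 7.84 and 5.03. These 2 had a promoter peak in each replicate, with a score under that of the conservative set.

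**Figure D2:**
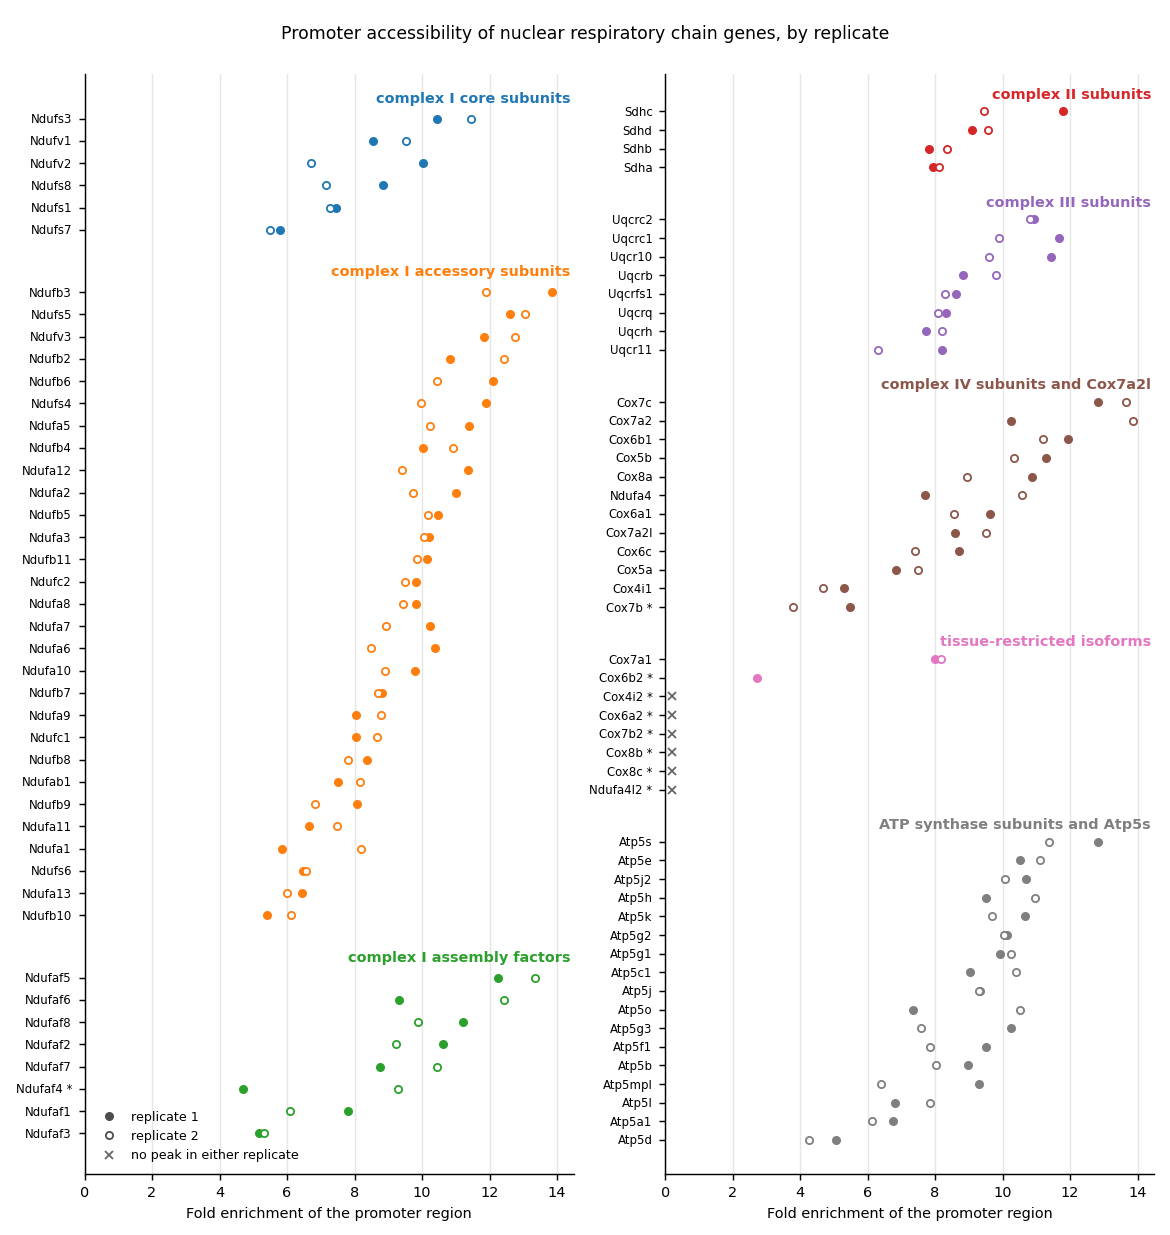
Fold enrichment of the promoter region of 92 of the 93 members in replicate 1 (filled) and replicate 2 (open circles), by complex and ordered by the mean; a cross marks members with no peak in either replicate and an asterisk those outside the conservative set. Cox7c and Ndufb3 are near the right end and Atp5d and Cox4i1 near the left among open members, and 6 tissue-restricted isoforms have no value.

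Of the 8 tissue-restricted isoforms, 7 lacked an open promoter in the conservative set, and Cox7a1 had one. Among their 7 partner genes, 6 were open. Cox4i2, Cox6a2, Cox7b2, Cox8b, Cox8c and Ndufa4l2 had no promoter peak in either replicate. Their partners Cox4i1 (5.29 and 4.67), Cox6a1 (9.63 and 8.56), Cox8a (10.9 and 8.94) and Ndufa4 (7.71 and 10.6) all had one. Cox6b2 had a peak of 2.72 in replicate 1 and none in replicate 2, with an IDR score of 144, beside 11.9 and 11.2 for Cox6b1. Cox6a2 and Cox8b are known from heart and skeletal muscle, and Cox6b2, Cox7b2 and Cox8c from testis. The isoforms had CpG ratios of 0.19 to 0.47, with a median of 0.33, and their partners 0.48 to 1.00, with a median of 0.78.

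Cox7a1, known from heart and skeletal muscle, was the exception. It had a fold of 7.99 in replicate 1 and 8.18 in replicate 2, and its summit lay at position -47. Cox7a2 was higher in both, at 10.3 and 13.9. The CpG ratio of Cox7a1 is 0.28, and its region of 464 bp holds no start of another protein-coding gene. The 4 muscle and heart markers, Myod1, Ckm, Myh6 and Myh7, had no promoter peak in either replicate.

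Many members share their promoter region with a neighbour, so that the value cannot be given to either gene alone. Of the 84 open members, 33 (39.3%) had a region that also lay within 1 kb of the start of another protein-coding gene, against 22.8% of all open promoters. The share was 42.7% for mitochondrial ribosomal proteins, 18.8% for cytosolic ribosomal proteins and 23.7% for the proteasome. Of the 35 pairs, 28 stood head to head, with opposite strands and starts 3 to 336 bp apart (median 91.5 bp). The share of head to head pairs over all open promoters is not given. Neighbours were named here after their values had been seen.

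In complex II, Sdhd lies 98 bp from Timm8b, which encodes a chaperone of mitochondrial protein import, and the Sdhd stretch printed above spans the gap between these starts. Sdha lies 29 bp from Ccdc127. In complex I, Ndufs1 and Eef1b2, a translation elongation factor, start 3 bp apart, as do Ndufb11 and Rbm10. Ndufa7 and Rps28, a ribosomal protein gene, start 10 bp apart. Ndufb5 with Mrpl47 and Ndufs6 with Mrpl36 pair a complex I gene with a mitochondrial ribosomal protein gene. Atp5j, a stalk subunit of the ATP synthase, shares its region with Gabpa, which encodes the DNA-binding part of GABP. The region had 9.32 in replicate 1 and 9.31 in replicate 2.

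The strongest point of the open region sat close to the start. The median distance from start to summit was 35.5 bp for the 84 members and 67 bp for all open promoters, and 69 members (82.1%) lay within 100 bp, against 64.1% of all open promoters. The summit was upstream of the start in 58 members, downstream in 26 and over 500 bp away in 4. No share over all open promoters is given beside these counts. Each of the 4 shares its region with a neighbour: Atp5j at 531, Atp5f1 at 682, Ndufa13 at 859 and Ndufa11 at position -707. The region of Ndufa13, shared with Tssk6 and Yjefn3, and those of Atp5j and Atp5f1 did not cover the member's own start. Their fold is thus measured beside the gene and not on its start.

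**Figure D3:**
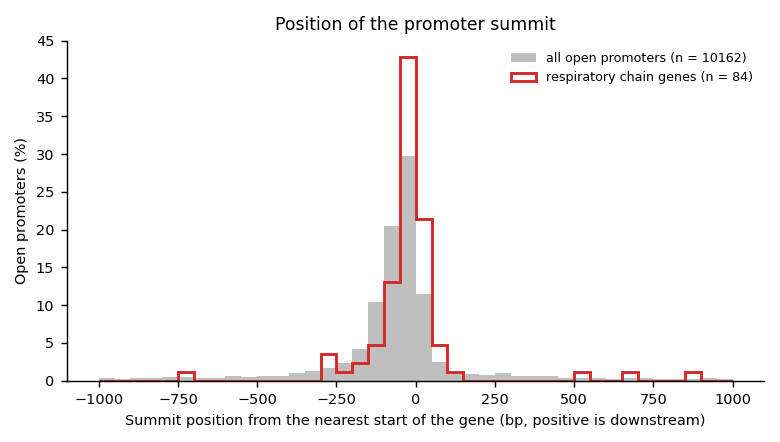
Share of open promoters (%) by position of the strongest summit from the nearest start of the gene, in bins of 50 bp, for all 10162 open promoters (grey) and the 84 open members (red line). Most members lie within 100 bp of the start, and 4 lie over 500 bp away.

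The ERR string was found mainly downstream of the start. From 250 bp before to 50 bp after the start, 4 members held it (4.30%), against 1.34% of all genes: Sdhd, Atp5g3, Atp5l and Ndufs5. Within 500 bp on each side 25 members held it (26.9%), against 5.30% of all genes and 4.70% of all open promoters. Most of these were intronic. In the first 500 bp of the transcript, 18 members had the string in an intron (19.4%), in every case the first, against 1.43% of all genes and 1.65% of open promoters. Splitting the window by intron was chosen after the wider count had been seen.

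The counts were also set against the length of intron searched. Per 10 kb of intron sequence in that stretch the string occurred 6.53 times in members and 0.62 times in all genes, from 18 and 322 occurrences. The TGACCTTG direction on the gene's strand made up 15 of the 18 (83.3%) and 61.8% of those of all genes. Mitochondrial ribosomal protein genes had the string in an intron in 6 of 78 genes (7.69%), with 5 of the 6 in that direction, and cytosolic ribosomal protein and proteasome genes in 0 of 98 and 0 of 40. Within 500 bp, 8 of 17 ATP synthase genes and 5 of 12 of complex IV held it. The counts were 2 of 8 in complex III, 1 of 4 in complex II, and in complex I 2 of 7 core subunits, 5 of 29 accessory subunits and 1 of 8 assembly factors. Of the tissue-restricted isoforms 1 of 8 held it.

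Members with the intronic string inside the open region were Atp5mpl, Atp5g2, Uqcr10, Atp5b (the catalytic beta subunit), Ndufb5, Atp5c1 (the gamma subunit), Ndufaf5, Atp5e, Ndufa12 and Ndufa2. In the other 8, among them Cox4i1, Cox5b, Cox6c and Ndufs8, the string lay past the edge of the region. Within 100 bp of the summit, a shorter window, 2 of the 84 open members had it (2.38%), against 0.56% of all open promoters. Most members with the string thus had it outside that window, and its distance from the summit was not compared with that in other genes. In Atp5g3 the string lay at positions -52 to -45, at the summit of a region with 10.2 and 7.59. The ERR gene Esrra was itself open, with 7.76 in replicate 1 and 7.89 in replicate 2, while Esrrb and Esrrg had no promoter peak in either.

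**Figure D4:**
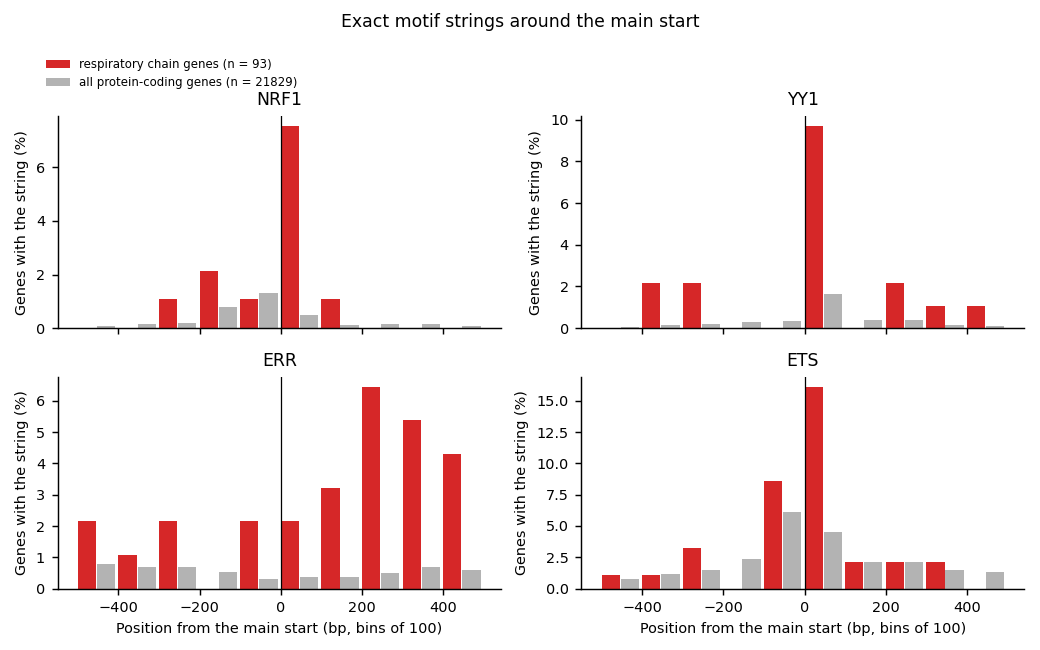
Share of genes (%) with an exact string in bins of 100 bp from the main start, for the 93 members (red) and all 21829 protein-coding genes (grey), for NRF1, YY1, ERR and ETS. The ERR string in members is spread over the first 500 bp of the gene, while the NRF1 and YY1 strings of members peak in the first 100 bp.

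The NRF1 string, GCGCATGCG, was held by 8 members in the window around the start (8.60%), against 2.51% of all genes and 3.92% of open promoters. They were Atp5g2, Atp5k, Atp5l, Cox6a1, Ndufa11, Ndufaf4, Ndufaf5 and Uqcr11. In the first 100 bp of the transcript, the bin where members had it most often, 7 members had it (7.53%), against 0.51% of all genes. All genes had it most often in the 100 bp before the start (1.33%), where 1.08% of members had it. Within 500 bp upstream 4 of 93 members had it (4.30%), against 2.42% of all genes and 3.72% of open promoters. Nrf1 itself was open in the conservative set with 5.43, and among the replicates in replicate 2 alone, with 5.11.

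The YY1 string, AAGATGGCG, was in 6 members around the start (6.45%), against 1.86% of all genes and 3.57% of open promoters. Within 500 bp it was in 16 members (17.2%), against 3.71% of all genes and 6.96% of open promoters. In 10 members it was in an exon, and in 9 of those 10 its ATG was an annotated start codon, as in 58.3% of the genes of the genome that had it in an exon. Proteasome genes held it within 500 bp at 17.5% and mitochondrial ribosomal protein genes at 14.1%. Atp5h, Ndufa2, Ndufa9, Ndufaf8 and Ndufs7 were among the members with it around the start, and Ndufs7 was the weakest of the complex I core at 5.78 and 5.49.

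The ETS string, CCGGAAG, was in 17 members (18.3%), against 11.2% of all genes and 20.4% of open promoters. Within 500 bp, 32.3% of members held it, against 19.4% of all genes, 32.7% of open promoters and 55.1% of mitochondrial ribosomal protein genes. The SP/KLF string GGGCGG was in 39 of the 93 members (41.9%), against 45.4% of all genes, and in 34 of the 84 open members (40.5%), against 64.1% of open promoters. The NF-Y string CCAAT was in 35 members (37.6%), against 38.6% of all genes and 40.7% of open promoters. The TATA box string, TATAAA, was in 10 (10.8%), against 12.6% and 6.92%, and the E-box string CACGTG in 8 (8.60%), against 7.71% and 10.5%. These shares of NF-Y, TATA and E-box lie near those of all genes. The CRE string TGACGTCA was in 4 members (4.30%), against 2.48% of all genes and 3.71% of open promoters, and the ZNF143 string ACTACAATT in 2 (2.15%), against 0.56% and 0.91%. The string of PU.1, GAGGAAGT, a factor that directs myeloid gene expression, was in 0 members around the start, against 3.15% of all genes and 3.17% of open promoters. Within 100 bp of the summit it was in 2 of 84 (2.38%), against 3.4% of open promoters, and within 500 bp of the start in 6 of 93 (6.45%), against 6.81% of all genes. A match is a run of letters and does not show that a factor was bound.

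Of 19 genes for regulators of nuclear mitochondrial genes, 16 were open in the conservative set (84.2%), where the share of all genes was 46.6%. In replicate 1 it was 14 (73.7%) and in replicate 2 it was 15 (78.9%). Tfb1m and Tfb2m, factors of mitochondrial transcription, had 13.3 and 11.7 in replicates 1 and 2 for Tfb1m, and 11.7 and 10.4 for Tfb2m. Tfam had 6.52 and 7.83. Yy1 had 7.33 and 6.74. Ppargc1a, the coactivator known for raising mitochondrial content in muscle and brown fat, was not open in either replicate, and Ppargc1b had 4.09 in the conservative set and no promoter peak in either replicate's list. Among assembly factors and cytochromes c, Cycs, which encodes cytochrome c, had a pooled fold of 14.7, above every member, and Atpaf1 was the gene not open.

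Distal regions were found at a minority of members, a share near that of all genes in the conservative set. In the conservative set 30 members had a region farther than 1 kb from every start with a start of the member nearest (32.3%), against 33.6% of all genes. The counts were 31 in replicate 1, where the share of all genes was 41.7%, and 33 in replicate 2, where it was 41.5%. There were 52 such regions, of which 38 were found in both replicates, 12 in 1 and 2 in neither. Their median pooled fold was 5.77, against 6.03 for all distal regions. Of the 52, 27 were intergenic, 17 intronic and 8 exonic, and 26 lay within 10 kb of the start.

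Cox4i1, Sdhb and Uqcrfs1 had 5 distal regions each, and Atp5mpl and Ndufb6 had 3 each. For Cox4i1 each replicate gave 7, for Sdhb each gave 5, and Uqcrfs1 had 4 and 3. Cox4i2, Cox6a1, Cox8b, Ndufa4l2, Ndufb4 and Sdhd had 2 each. Nearest start is a rule of position, and some of these regions lie inside other genes. Of those given to Sdhb, 3 lie within Padi2, a peptidylarginine deiminase gene, and the strongest had 7.26 and 7.50. The region given to Cox6a2, with 6.21 and 6.48, lies in an intron of Itgad, an integrin of leukocytes. The 5 regions given to Uqcrfs1, the Rieske iron-sulfur protein of complex III, are intergenic, and the strongest had 9.28 and 6.87.

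The regions of Cox4i1 lie on the way to Irf8, a transcription factor that directs monocyte development, whose start is 68.1 kb downstream on the same strand. All 5 lie in introns of Gm20388, another protein-coding gene model. Their summits are 10.4, 15.5, 17.1, 18.1 and 34.0 kb from the start of Cox4i1. The region at 18.1 kb had 5.09 in replicate 1 and 5.90 in replicate 2, and the region at 34.0 kb had 7.05 and 4.27. The one at 10.4 kb was found in replicate 1 alone, with 5.01, and the one at 15.5 kb in replicate 2 alone, with 3.63. From the start of Irf8 the same 5 summits lie at -57.7, -52.6, -51.0, -50.1 and -34.1 kb. The region at 34.0 kb is thus about as far from Irf8 as from Cox4i1. Which gene these regions act on was not measured.

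**Figure D5:**
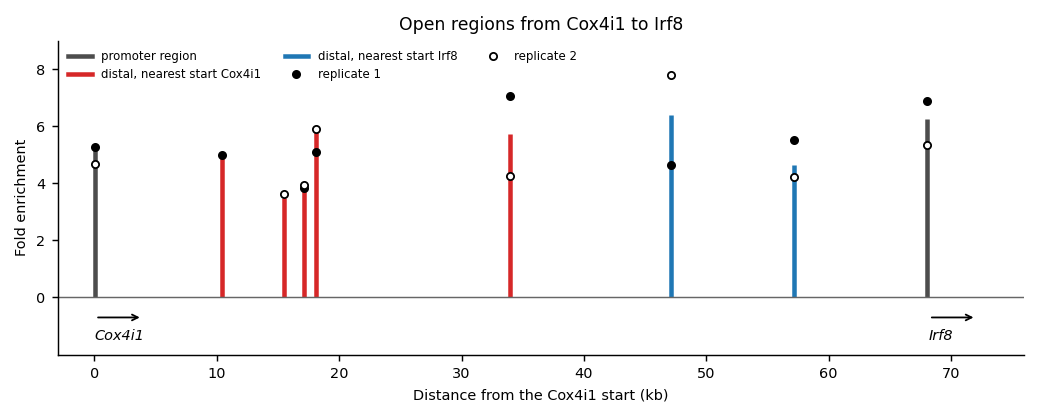
Open regions of the conservative set between the starts of Cox4i1 and Irf8, by distance from the Cox4i1 start (kb) and fold enrichment; bars give the pooled fold, circles the replicates, and arrows the direction of transcription. The 5 regions nearest to Cox4i1 (red) have pooled folds from 3.50 to 5.84, beside 5.25 at the shared promoter of Cox4i1.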

How the data were processed

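Peak lists of ATAC-seq on mm10 were used, per the labels. The authors deposited peaks called in each replicate and peaks made from both, per the deposited README, which lists an additional unnamed input. The fold enrichment of a peak (a ratio over background), its −log10 p and its IDR score are the values the authors deposited. The software for alignment and peak calling, and any Tn5 shift, is not given in the sources used here. No read counts were used, so depth is unknown and no interval is given.

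Overlapping peaks on chromosomes 1 to 19, X and Y were merged, keeping the largest fold and the summit with the best p. Promoters lie within 1 kb of the start of a protein-coding transcript in GENCODE M21. Other regions went to the nearest start within 100 kb. Sequence was read from GRCm38.p6, and the CpG ratio from 500 bp on each side of the start. The steps were tested on simulated peaks and strings.

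Members, lists and strings were chosen with earlier results of these data known. Named are members without an open promoter, isoform pairs, the 8 strongest and 8 weakest by mean rank, the 8 with most distal regions (with ties), complex I core and complex II, and the 5 with the widest gap between replicates; genes outside the lists were named after their values were seen. The values of 1 core subunit and the name of 1 neighbour are not reported here. Alternatives were other peak sets, windows, distances, thresholds and member lists. Scripts ran under Python 3.11.15 with pandas 2.3.3 and numpy 2.4.6, and plots under matplotlib 3.10.9.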

Additional observations from a re-analysis of the deposited data

How the results depend on the processing

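Of 87 alternative values, 66 stayed close to the main ones, within 1.5 times for a count and within the spread between replicates otherwise, and 21 moved. Direction against the background share was not scored. For some strings it differed between windows. SP/KLF lay under the share of all genes around the start (41.9% against 45.4%) and above it within 500 bp (74.2% against 61.6%). Against the shares of all open promoters, 64.1% around the start and 84.3% within 500 bp, it lay under in both windows. Open promoters numbered 81 to 87 under every alternative that kept all members, and 74 of the 75 subunits left without assembly factors, restricted isoforms, Atp5s and Cox7a2l.

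Distal counts moved with the peak set. The 52 regions became 90 in the replicated set, 89 in the pooled pseudoreplicated set, and 22 and 25 in the IDR-thresholded sets of replicates 1 and 2. The 30 members with one became 14 and 19 in these last sets, and 12 with the stronger part of the regions by −log10 p. With each replicate alone there were 60 to 65 regions at 31 to 33 members, 86 to 87 open and 33 to 34 shared promoters, a median percentile of 71.7 to 73.2 and a median summit distance of 36 to 37 bp. With the summit nearest to the start, an alternative added after seeing the data, the median distance was 27 bp.

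String counts depend on the window, and their reading depends on the background. Within 500 bp of the start, ETS was in 32.7% of all open promoters, YY1 in 6.96%, ERR in 4.70% and SP/KLF in 84.3%. In the same window NF-Y was in 67.3% of open promoters, E-box in 21.6%, PU.1 in 7.1% and TATA in 20.8%. Within 100 bp of the summit ERR was in 2 of 84 members (2.38%; open promoters 0.56%), E-box in 5 (5.95%; 9.0%), ZNF143 in 0 (0.91% of open promoters), PU.1 in 2 (2.38%; 3.4%) and TATA in 3 (3.57%; 2.53%). Within 500 bp of the start ETS was in 30 of 93 (32.3%; all genes 19.4%), YY1 in 16 (17.2%; 3.71%), ERR in 25 (26.9%; 5.30%), SP/KLF in 69 (74.2%; 61.6%), NF-Y in 53 (57%; 70.0%), E-box in 14 (15.1%; 16.9%), PU.1 in 6 (6.45%; 6.81%) and TATA in 22 (23.7%; 31.5%).

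No paired analysis was possible because the series holds 1 group. The 2 replicates share a donor identifier, folds from different lists are not on 1 scale, and unknown depth limits what the absence of a peak shows.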
